A study of Mus musculus with 8 samples.

Results

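The proteasome genes of the mouse lens were described across 8 RNA libraries of lens fiber cells (FC), the elongated cells that make up the bulk of the lens. They were taken as the protein-coding genes whose symbol starts with Psma, Psmb, Psmc, Psmd, Psme, Psmf or Psmg followed by a number, which gave 50 of the 35275 genes listed. Of these, 44 reached 1.0 FPKM in the mean of a group and were tested, among 9794 genes tested in all. FPKM are read fragments scaled to the length of a gene and to the size of its library. The FC came from C57BL/6 mice (C57BL/6J in the study's methods). One group had breathed cigarette smoke (CS) in a whole-body chamber for 5 hours on 5 days of each week, over 3.5 months from around birth, and the other was age-matched and untreated (Ct). Each group had 4 libraries, each from the right lenses of 4 mice pooled after the epithelium had been pulled away, and 2 pools of each group were male and 2 female. The libraries held an estimated 18100000 to 23300000 fragments.

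The proteasome is the main protease for proteins tagged with ubiquitin. Its barrel-shaped 20S core is built of outer alpha rings, which gate the entrance, and inner beta rings, which carry the proteolytic sites. The 19S particle caps the core: a base with a ring of ATPases unfolds and threads the substrate, and a lid removes the ubiquitin. Lens FC lose their nuclei and organelles as they mature and keep their crystallins for the life of the animal, and their RNA is made while they are still young, in the outer lens.

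The alpha ring is encoded by Psma1 to Psma7 and the beta ring by Psmb1 to Psmb7, and 3 of the beta subunits are catalytic: Psmb6 (beta1, caspase-like), Psmb7 (beta2, trypsin-like) and Psmb5 (beta5, chymotrypsin-like). Interferon-gamma and immune cells bring in the inducible subunits Psmb9, Psmb10 and Psmb8, which take the places of Psmb6, Psmb7 and Psmb5 and form the immunoproteasome. The promoters of Psmb5 and Psmb6 are shown with those of Psmb8 and Psmb9, because in each pair the constitutive gene was among the highest and the inducible gene among the lowest of the core. Each window runs from 250 bases before to 50 bases after the start of the gene, 5′ to 3′ on the strand of the gene, as given by RefSeq on GRCm38.p6. Capitals mark the antioxidant response element core TGACNNNGC, which is bound by Nrf1 and Nrf2 with small Maf proteins, and CCAAT and CCGCCC boxes on either strand.
Psmb5, chr14:54617946-54618245, minus strand: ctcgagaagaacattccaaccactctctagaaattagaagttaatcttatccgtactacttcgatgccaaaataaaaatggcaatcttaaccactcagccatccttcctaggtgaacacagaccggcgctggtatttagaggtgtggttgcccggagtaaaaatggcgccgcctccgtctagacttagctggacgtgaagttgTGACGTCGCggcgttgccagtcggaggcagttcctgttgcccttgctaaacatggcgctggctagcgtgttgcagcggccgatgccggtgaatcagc
Psmb8, chr17:34197945-34198244, plus strand: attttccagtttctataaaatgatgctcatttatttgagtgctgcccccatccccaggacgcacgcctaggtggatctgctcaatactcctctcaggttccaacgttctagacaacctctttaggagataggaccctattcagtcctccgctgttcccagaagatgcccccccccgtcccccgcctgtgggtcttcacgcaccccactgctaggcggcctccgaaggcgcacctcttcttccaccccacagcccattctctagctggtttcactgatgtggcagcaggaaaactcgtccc
Psmb6, chr11:70525107-70525406, plus strand: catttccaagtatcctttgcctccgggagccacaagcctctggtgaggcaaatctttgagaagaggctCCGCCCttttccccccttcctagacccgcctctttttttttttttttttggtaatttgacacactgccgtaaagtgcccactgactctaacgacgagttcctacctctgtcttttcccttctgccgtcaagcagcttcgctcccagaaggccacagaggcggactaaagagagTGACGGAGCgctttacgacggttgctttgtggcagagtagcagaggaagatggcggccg
Psmb9, chr17:34187281-34187580, minus strand: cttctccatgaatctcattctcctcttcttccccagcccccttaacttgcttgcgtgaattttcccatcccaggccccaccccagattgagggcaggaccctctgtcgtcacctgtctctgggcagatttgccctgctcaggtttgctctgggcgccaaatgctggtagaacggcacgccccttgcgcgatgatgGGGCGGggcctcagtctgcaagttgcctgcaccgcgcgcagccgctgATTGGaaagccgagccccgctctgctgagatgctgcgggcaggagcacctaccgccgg

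The windows of Psmb5 and Psmb6 each held 1 copy of TGACNNNGC, beginning 47 bases before the start of Psmb5 and 9 bases before that of Psmb6. Neither Psmb8 nor Psmb9 had the motif in its window, and Psmb8 had none of the 3. The gene spans given below, from GENCODE M21, begin further upstream for Psmb8 (chr17:34197721-34201454) and Psmb9 (chr17:34181987-34187764). Both windows lie inside these spans, so that the bases before those other starts were not searched. Promoter windows were found for 42 of the 50 genes (45 windows). TGACNNNGC was in 13.3% of these windows and in 12.4% of all 32851 windows, so its share among proteasome genes was close to that of other genes. The 6 genes with it were Psmb5, Psmb6, Psmc6, Psmd9, Psmd12 and Psme4. CCAAT was in 33.3% of the windows of proteasome genes against 37.4% of all, and CCGCCC in 53.3% against 35.7%. No motif overlapped another in the 4 windows shown. A match is a stretch of letters and was not tested as a binding site.

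The genes of the 20S core and 19S particle were expressed in every library, and their levels were spread more widely between subunits than between libraries. The coefficient of variation between genes was 66.7% for the 14 constitutive core genes in untreated Ct mice, whereas the median coefficient of variation of a core or 19S gene between libraries of a group was 5.77%. The 14 constitutive core genes summed to 735 ± 20 FPKM in untreated Ct mice and 755 ± 22.0 in CS-exposed mice (SD, n = 4 each). The 17 genes of the 19S particle with a Psm symbol, which are 6 ATPases, 3 other base subunits and 8 lid subunits, summed to 965 ± 20.2 and 975 ± 13.8 FPKM (SD, n = 4 each). Adrm1 and Shfm1, which also encode 19S subunits, carry other symbols and are not in this sum. They had means of 24.5 and 32.7 FPKM in untreated Ct mice. All 50 genes together made up 0.238% of the summed FPKM of untreated Ct libraries and 0.242% of CS-exposed libraries. The median of the 44 tested genes was 26.7 FPKM in untreated Ct mice, against 4.68 FPKM over all 9794 genes tested. Between libraries of a group, the median coefficient of variation of a tested proteasome gene was 6.44%. That of all genes tested, whose median level was lower, was 11.1%. Whole reads could be recovered from the steps of the FPKM for all 50 genes, and 41 of the 44 tested genes had at least 100 reads in every library, with a median of 1014 reads.

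**Figure D1:**
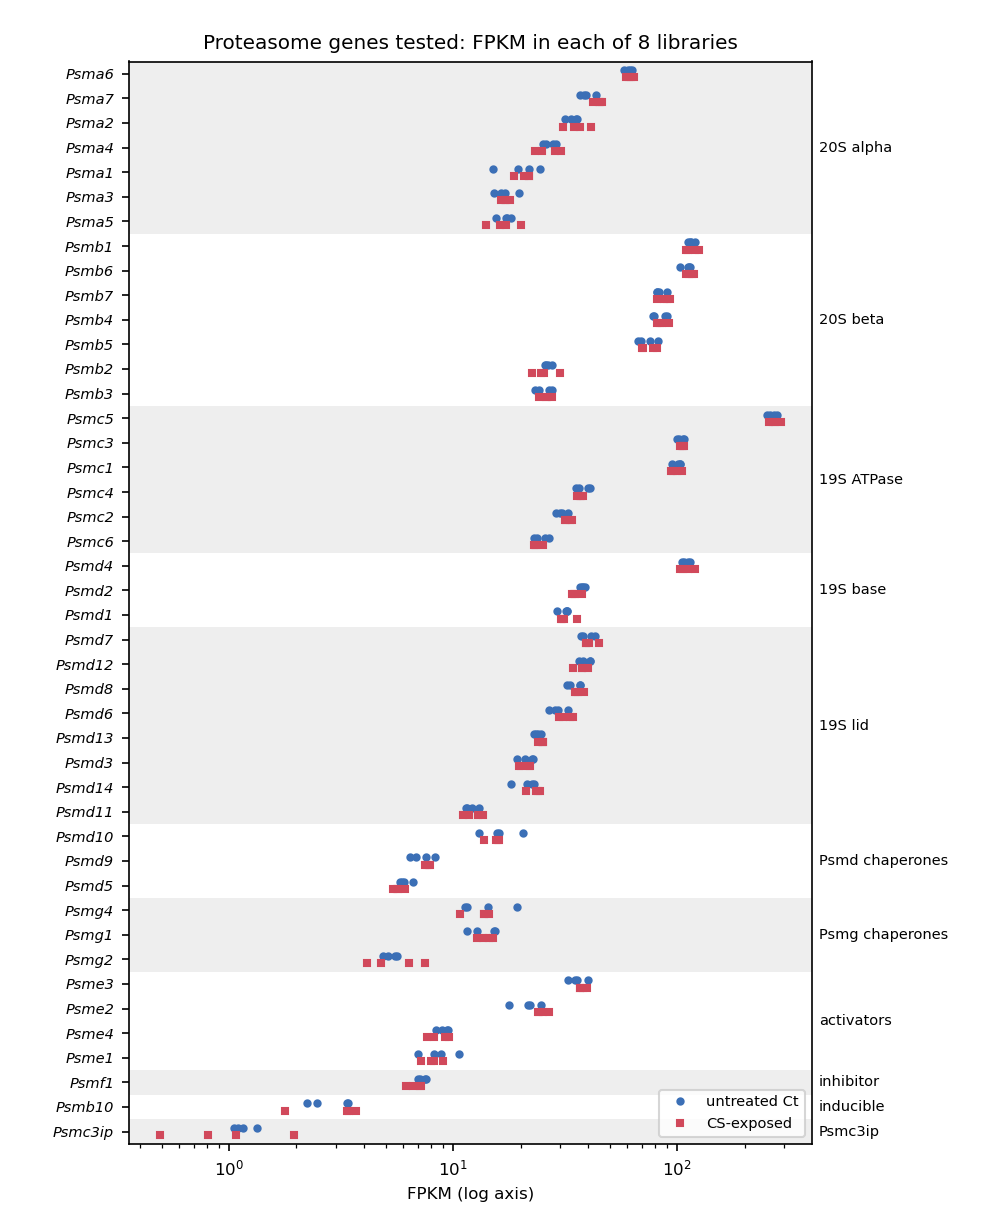
FPKM of the 44 proteasome genes tested (vertical axis, ordered by role and by level) in the 4 untreated Ct libraries (circles) and the 4 CS-exposed libraries (squares), on a log axis. Psmc5 stands above all others at 253 to 290 FPKM, the points of both groups overlap in every row, and only Psmb10 and Psmc3ip lie below 4 FPKM in every library.

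In the alpha ring, Psma6 was the highest at 60.7 ± 2.24 FPKM in untreated Ct mice (SD, n = 4), and Psma3 and Psma5 were the lowest at 17.1 ± 1.83 and 17.1 ± 1.09. With annotated gene lengths in place of those behind the FPKM, Psma6 was still the highest at 51.2 FPKM, but Psma1 (8.22) and Psma2 (8.76) were the lowest and Psma5 had 16 FPKM. The ratio of Psma6 to Psma5 was 3.56 ± 0.118 in untreated Ct and 3.71 ± 0.485 in CS-exposed libraries, and ranged from 3.19 to 4.36. Every alpha subunit is present in the same number of copies in a core particle, so that these are differences of RNA between subunits that are equal in the complex. Psma1 varied the most in untreated Ct mice, with 21.8, 24.5, 19.4 and 15 FPKM.

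The beta ring summed to more than the alpha ring, and by the deposited FPKM it fell into separate levels. Psmb1 (115 ± 3.29 FPKM) and the catalytic Psmb6 (111 ± 5.09) were the highest in untreated Ct mice, followed by Psmb7 (84.1 ± 3.95), Psmb4 (83.9 ± 6.11) and Psmb5 (73.5 ± 7.09), each n = 4. Psmb2 and Psmb3, which are structural subunits, were lower at 26.4 ± 0.858 and 25.4 ± 1.97 FPKM. With annotated lengths the upper level held other genes, with 71.2 FPKM for Psmb5, 57.3 for Psmb6 and 50.8 for Psmb4, and below it were 28.5 for Psmb7, 25.9 for Psmb1, 18.8 for Psmb2 and 16.7 for Psmb3. Psmb7 and Psmb4 were within their spread of each other, as were Psmb1 and Psmb6, whereas the lowest value of Psmb5 (66.6 FPKM) was above the highest of Psmb2 (30.1 FPKM) over all 8 libraries. Of the 3 catalytic genes, Psmb6 was 1.51 ± 0.169 times Psmb5 in untreated Ct and 1.54 ± 0.128 times in CS-exposed libraries, and 1.32 ± 0.0754 and 1.30 ± 0.0953 times Psmb7. The order of Psmb6 and Psmb5 turned with annotated lengths, which gave 57.3 and 71.2 FPKM in untreated Ct mice, a ratio of 0.804, and Psmb6 was then 2.01 times Psmb7.

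The 6 ATPases (Psmc1 to Psmc6) form a single ring with 1 copy of each, and their RNA levels differed 10.7-fold in untreated Ct mice by the deposited FPKM and 23.9-fold with annotated lengths. Psmc5, on chr11:106256154-106263120, had the highest level of any proteasome gene, at 260, 280, 253 and 271 FPKM in untreated Ct and 290, 273, 256 and 269 in CS-exposed libraries. It ranked 163 among the 9794 genes tested, and 6842 to 8804 reads stood behind each value. The groups overlapped for Psmc5. Psmc3 (104 ± 3.60 FPKM) and Psmc1 (101 ± 3.69) came next in untreated Ct mice, and their ratio of 1.03 ± 0.0612 was within the spread between libraries. Psmc4 (38.2 ± 2.56), Psmc2 (30.5 ± 1.56) and Psmc6 (24.9 ± 1.81) were the lowest. Psmc5 was 10.7 ± 0.879 times Psmc6 in untreated Ct and 11.4 ± 0.216 times in CS-exposed libraries. It was above Psmb1, the core gene with the highest deposited FPKM, in all 8 libraries, by 2.20 to 2.45 times, and by 10.3 times in untreated Ct mice with annotated lengths.

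Of the remaining base subunits, Psmd4, a ubiquitin receptor, had 110 ± 4.25 FPKM in untreated Ct mice, and the scaffolds Psmd2 and Psmd1 had 37.9 ± 0.840 and 31.3 ± 1.49. The 8 lid genes with a Psm symbol were the most even of the larger groups by the coefficient of variation. Their means ranged from 12.1 FPKM for Psmd11 to 39.8 for Psmd7, a 3.29-fold range. The coefficient of variation between genes was 35.3%, against 51.0% for the alpha ring, 48.8% for the beta ring and 97.1% for the ATPases. With annotated lengths the range of the lid was 5.1-fold, wider than the 4.27-fold range of the beta ring, and the coefficients of variation were 48.7% for the lid, 80.8% for the alpha ring, 55.1% for the beta ring and 118% for the ATPases. Psmd14, the deubiquitinase of the lid, had 21.2 ± 2.17 FPKM in untreated Ct and 23.3 ± 1.46 in CS-exposed mice.

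Levels of different genes are comparable only as far as the gene lengths used for the FPKM hold. The lengths that the deposited values imply were shorter than the summed annotated exons (GENCODE M21) for most genes, with a median ratio of 0.689 over 49 genes, and for 13 of them less than 50% of it. The annotated length joins the exons of all annotated transcripts of a gene, so that it can exceed the length of any single transcript. Which length is nearer to the RNA present was not tested. Psmc5 had the same length in both, 1394 bases, and was still the highest with annotated lengths at 266 FPKM, followed by Psmd4 at 83. Psmb1 was the gene most affected, with a ratio of 0.225. Of the 10 highest genes, 8 were among the 10 highest by either length, and Psmb1 and Psmb7 were not. In the beta ring, Psmb5 was then the highest at 71.2 FPKM and Psmb1 had 25.9. Comparisons of 1 gene between libraries do not depend on its length.

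The assembly chaperones were lower as a group, with a median of 7.28 FPKM over 7 genes in untreated Ct mice against 36.8 for the core and 34.8 for the 19S particle. For the 6 chaperones tested, the median was 10.5 FPKM, and with annotated lengths the medians were 6.97 for these 6, 19.1 for the core and 21 for the 19S particle. Psmg1 to Psmg4 build the core. Psmg4 had 14.1 ± 3.69 FPKM, Psmg1 13.8 ± 1.87 and Psmg2 5.27 ± 0.339 in untreated Ct mice, each n = 4. Psmg3, the partner of Psmg4, was listed at only 0.317 ± 0.183 FPKM in untreated Ct and 0.430 ± 0.164 in CS-exposed mice, from 9 to 31 reads per library, and was not tested. Its exons overlap Gm26938 on the same strand, which was listed at 0 in all 8 libraries, and how shared reads were assigned was not stated, so that the part of this overlap was not tested. Of the base chaperones, Psmd10 had 16.3 ± 3.14, Psmd9 7.28 ± 0.862 and Psmd5 6.09 ± 0.367 FPKM in untreated Ct mice. Pomp, which completes the core together with the Psmg chaperones but carries another symbol, had 72.2 ± 2.85 FPKM.

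Among the activators, Psme3, which forms the nuclear PA28-gamma ring, was the highest at 35.8 ± 3.2 FPKM in untreated Ct mice. Psme2 and Psme1, the partners of the cytoplasmic PA28-alpha-beta ring, had 21.6 ± 2.91 and 8.66 ± 1.5 FPKM, and the ratio of Psme2 to Psme1 was 2.55 ± 0.582, or 1.51 with annotated lengths. Psme4, the single-chain activator PA200, had 9.07 ± 0.495 FPKM, and Psmf1, an inhibitor of the core in vitro, had 7.29 ± 0.281. Psme2b, a close copy of Psme2, was listed at 0.594 to 1.26 FPKM in untreated Ct and 0.349 to 1.29 in CS-exposed libraries (6 to 25 reads). Its exons overlap 9930111J21Rik1 on the same strand, which was listed at 0 in all 8 libraries. Reads of Psme2 and Psme2b may not be told apart by counting, so that both values are uncertain to that extent.

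Of the inducible subunits, Psmb8 and Psmb9 were at or near 0. Psmb8, on chr17:34197721-34201454, was listed at 0, 0.292, 0 and 0.0290 FPKM in untreated Ct and at 0, 0, 0.128 and 0 in CS-exposed libraries, from 12 and 5 reads in all. Of these, 11 were in untreated Ct replicate 2 and 5 in CS-exposed replicate 3. Psmb9, on chr17:34181987-34187764, was listed at 0.0523, 0, 0 and 0 in untreated Ct and at 0, 0.165, 0.0169 and 0.0481 in CS-exposed libraries, from 3 and 15 reads, of which 11 were in CS-exposed replicate 2. Both genes overlapped between the groups, and neither reached the minimum for the test. Exons of Psmb9 overlap Tap1 on the other strand, and those of Psmb8 overlap Gm20496, so that single reads may belong to either gene unless strand was used in counting.

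Psmb10, on chr8:105935735-105938444, was the only inducible subunit with a clear signal. It had 2.22, 2.47, 3.35 and 3.39 FPKM in untreated Ct and 3.36, 1.77, 3.45 and 3.68 in CS-exposed libraries, from 52 to 101 reads per library. Its values overlapped between the groups. The mean of Psmb7 was 29.4 times that of Psmb10 in untreated Ct and 28.7 times in CS-exposed mice, and 13.4 times in untreated Ct mice with annotated lengths.

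**Figure D2:**
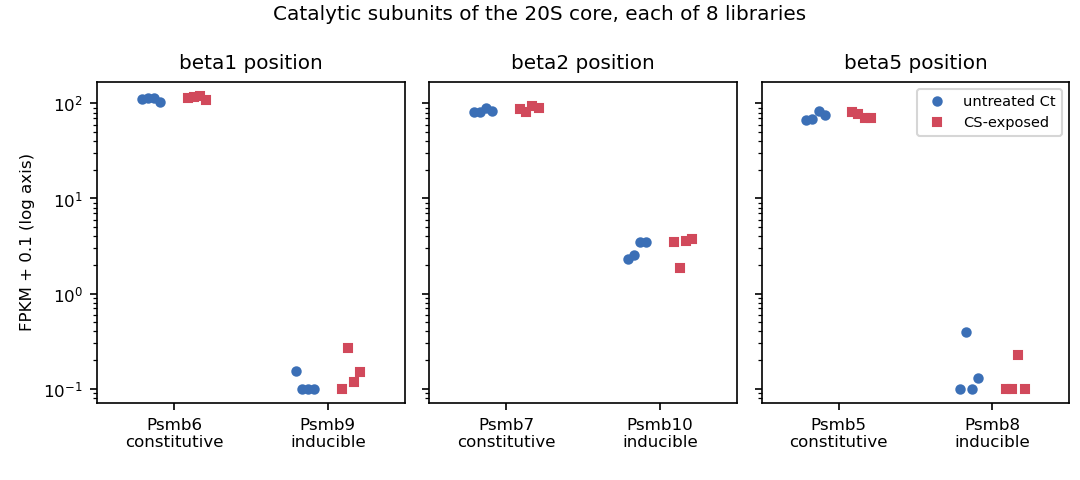
FPKM + 0.1 on a log axis for each constitutive catalytic subunit and the inducible subunit that can replace it, in the 4 untreated Ct libraries (circles) and 4 CS-exposed libraries (squares). Psmb6, Psmb7 and Psmb5 lie between 66.6 and 119 FPKM, Psmb10 between 1.77 and 3.68, and Psmb9 and Psmb8 at or near the floor of 0.1 set by the added constant.

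The log2 ratio of each inducible subunit to its counterpart, taken from log2(FPKM + 0.1), was compared between groups by a two-sided exact permutation test over the 70 assignments of the libraries, whose smallest p is 0.0286. For Psmb10 to Psmb7 it was -4.85 ± 0.26 in untreated Ct and -4.85 ± 0.40 in CS-exposed mice (SD, exact p = 1.0). For Psmb8 to Psmb5 the difference, CS-exposed minus untreated Ct, was -0.31 (exact p = 0.571), which turned to 0.17 without untreated Ct replicate 2 and was -0.80 with a constant of 0.01 and -0.086 with a constant of 1. For Psmb9 to Psmb6 it was 0.35 (exact p = 0.257), and 0.071 without CS-exposed replicate 2, 1.3 with a constant of 0.01 and 0.0095 with a constant of 1. Adjusted over these 3 ratios, the exact p-values were 1.0, 0.857 and 0.771. The ratios of Psmb8 and Psmb9 are largely set by the constant of 0.1, and a difference in them was not detectable at this depth.

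Genes of interferon signalling and antigen presentation, which are commonly raised together with the immunoproteasome, were low or moderate in level. Of the 10 genes in this list, 6 were tested by limma and none had an unadjusted p under 0.05 in either direction, a number of genes too small to be read against the 2.75% higher and 2.08% lower among all genes. Their median log2 fold change was 0.08. One of them, B2m, had means of 0.85 FPKM in untreated Ct and 1.11 in CS-exposed mice. It passed the minimum only through the CS-exposed group, where it was higher, so that a count and a median that include it are no support. Tap1, the peptide transporter next to Psmb9, had 0.129 ± 0.0232 FPKM in untreated Ct and 0.116 ± 0.0425 in CS-exposed mice, and Nlrc5, a transactivator of class I genes, had 7.43 ± 0.234 and 8.01 ± 0.589. The 7 leukocyte markers examined (Ptprc, Cd68, Csf1r, Aif1, C1qa, Cd74 and Lyz2) all had means under 1 FPKM, with sums of 0.122 to 0.963 FPKM in untreated Ct and 0.410 to 0.769 in CS-exposed libraries.

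The core subunits of other tissues were at or near 0. Psma8, which replaces an alpha subunit in the testis, was listed at 0 in all 8 libraries, and Psmb11, the beta5 subunit of thymic epithelium, at 3 reads in untreated Ct and 2 reads in CS-exposed libraries. Psmc3ip matches the symbols but is a recombination factor named for its partner and no subunit, and it was near the minimum with 1.16 ± 0.123 and 1.08 ± 0.625 FPKM.

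Between CS-exposed and untreated Ct mice, the proteasome genes differed little. Genes were compared on log2(FPKM + 0.1) with limma, two-sided, and p-values were adjusted by the Benjamini-Hochberg method over all 9794 genes tested. None of the 44 proteasome genes had an adjusted p under 0.05, and the smallest adjusted p was 0.956. Over all genes tested, 0.0102% passed, which is 1 gene. At an unadjusted p under 0.05, limma gave 2 proteasome genes, Psma7 and Psme2, both higher in CS-exposed mice, which is 4.55% of the 44 against 2.75% of all genes, a share that rests on 2 genes. No proteasome gene was lower at that level, against 2.08% of all genes. A test of the recovered reads with limma-voom, added to the FPKM, gave the same 2 genes and also none at an adjusted p under 0.05. No proteasome gene had groups that did not overlap, against 3.08% of all genes.

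Psma7, an alpha subunit on chr2:180036374-180042433, had 39.1, 36.9, 38.4 and 43.5 FPKM in untreated Ct and 45.1, 46.4, 45.0 and 42.3 in CS-exposed libraries. In 3 of 4 CS-exposed libraries it was above every untreated Ct library, and the groups overlapped through the remaining one. Its log2 fold change was 0.18 ± 0.06 (SE), with an unadjusted limma p of 0.0124 and an adjusted p of 0.956. Psme2, on chr14:55587441-55591113, had 24.7, 17.7, 22.1 and 21.7 FPKM in untreated Ct and 25.2, 26.7, 24.3 and 24.0 in CS-exposed libraries. Here 2 CS-exposed libraries were above every untreated Ct library. Its log2 fold change was 0.23 ± 0.09 (SE), with an unadjusted limma p of 0.0312 and an adjusted p of 0.956. Its partner Psme1 had 8.23, 8.80, 10.6 and 7.01 FPKM in untreated Ct and 8.18, 8.98, 7.21 and 7.98 in CS-exposed libraries, with means of 8.66 and 8.09. Without untreated Ct replicate 2, CS-exposed replicate 1 or CS-exposed replicate 2, Psme2 no longer had an unadjusted p under 0.05, and its log2 fold change ranged from 0.13 to 0.29 when each library was left out in turn.

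**Figure D3:**
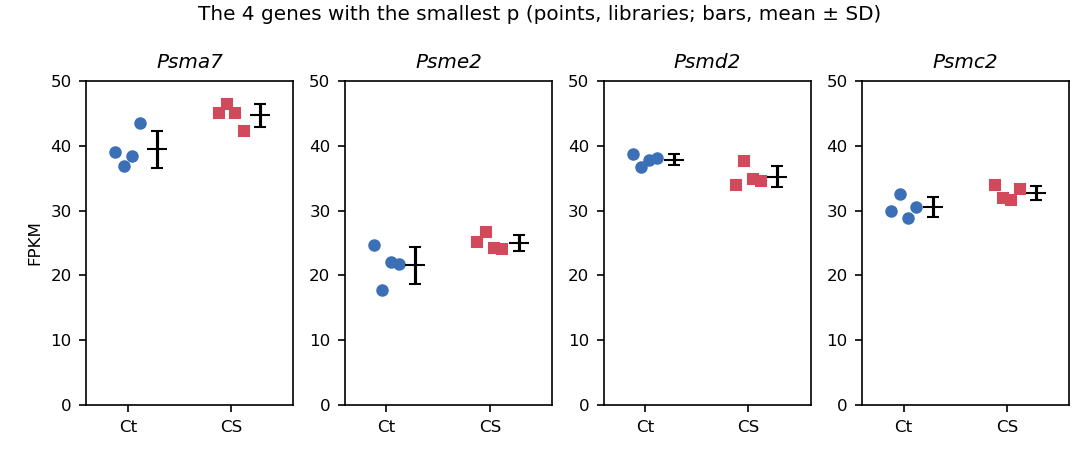
FPKM of the 4 proteasome genes with the smallest unadjusted p in untreated Ct (circles) and CS-exposed libraries (squares), with mean ± SD (n = 4) beside the points. Psma7, Psme2 and Psmc2 have higher means and Psmd2 a lower mean in CS-exposed mice, and the points of the groups overlap in all 4.

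The scaffold Psmd2, on chr16:20651652-20663414, had the lowest p among genes with a lower mean in CS-exposed mice. It had 38.8, 36.8, 37.8 and 38.1 FPKM in untreated Ct and 33.9, 37.7, 34.9 and 34.5 in CS-exposed libraries. In 3 of 4 CS-exposed libraries it was below every untreated Ct library. The log2 fold change was -0.11 ± 0.05 (SE), with an unadjusted limma p of 0.0705. Without CS-exposed replicate 2 its groups no longer overlapped and its unadjusted limma p was under 0.05. That library, at 37.7 FPKM, alone made the groups overlap, so that leaving it out had to separate them and is no support. In that fit 6.23% of all genes did not overlap. The ATPase Psmc2 had 30, 32.6, 28.9 and 30.5 FPKM in untreated Ct and 33.9, 32.0, 31.7 and 33.4 in CS-exposed libraries, a log2 fold change of 0.10 ± 0.06 (SE) with an unadjusted limma p of 0.0987. Psmd14, the deubiquitinase, had 23.0, 21.3, 18.2 and 22.5 FPKM in untreated Ct and 21.2, 23.9, 23.5 and 24.5 in CS-exposed libraries, and its log2 fold change of 0.14 ± 0.08 (SE) had an unadjusted limma p of 0.128 and was 0.062 without untreated Ct replicate 3. All of these overlapped between the groups and had an adjusted p of 0.956.

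For the catalytic genes the intervals were narrow. The log2 fold change was 0.05 for Psmb6 (95% interval -0.06 to 0.16), 0.07 for Psmb7 (-0.05 to 0.19) and 0.03 for Psmb5 (-0.14 to 0.19). For the inducible Psmb10 it was 0.07, with a wider interval from -0.42 to 0.56. Psmf1 had a log2 fold change of -0.11 (-0.29 to 0.07), Psmg2 of 0.08 (-0.27 to 0.43) and Psmc3ip of -0.24 (-0.96 to 0.49), the last from 13 to 53 reads per library.

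These intervals bound what the data allow. For all 31 subunits of the 20S core and 19S particle with a Psm symbol, the 95% interval lay within 0.5 of 0 on the log2 scale. The bounds ran from -0.25 to 0.34, and for 27 of these subunits the interval was within 0.25. Among the 44 genes, 42 (95.5%) had an interval within 0.5 of 0, against 70.3% of all genes tested, and 29 (65.9%) within 0.25, against 23.9%. The exceptions at 0.5 were Psmb10 and Psmc3ip. All genes tested were lower in level, with a median of 4.68 FPKM in untreated Ct mice against 26.7 for the 44 genes. Shares among genes of like level were not computed. The median log2 fold change of the 44 genes was 0.03 and that of all genes 0.00. Of the 44, 28 (63.6%) had a positive log2 fold change, against 51.2% of all genes tested, and the largest in size was 0.24. By role, the median was 0.02 for the alpha ring, 0.03 for the beta ring, -0.01 for the ATPases, 0.05 for the lid and 0.01 for the activators. It was 0.00 for the 3 other base subunits, -0.08 for the 3 base chaperones and 0.03 for the 3 Psmg chaperones tested.

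**Figure D4:**
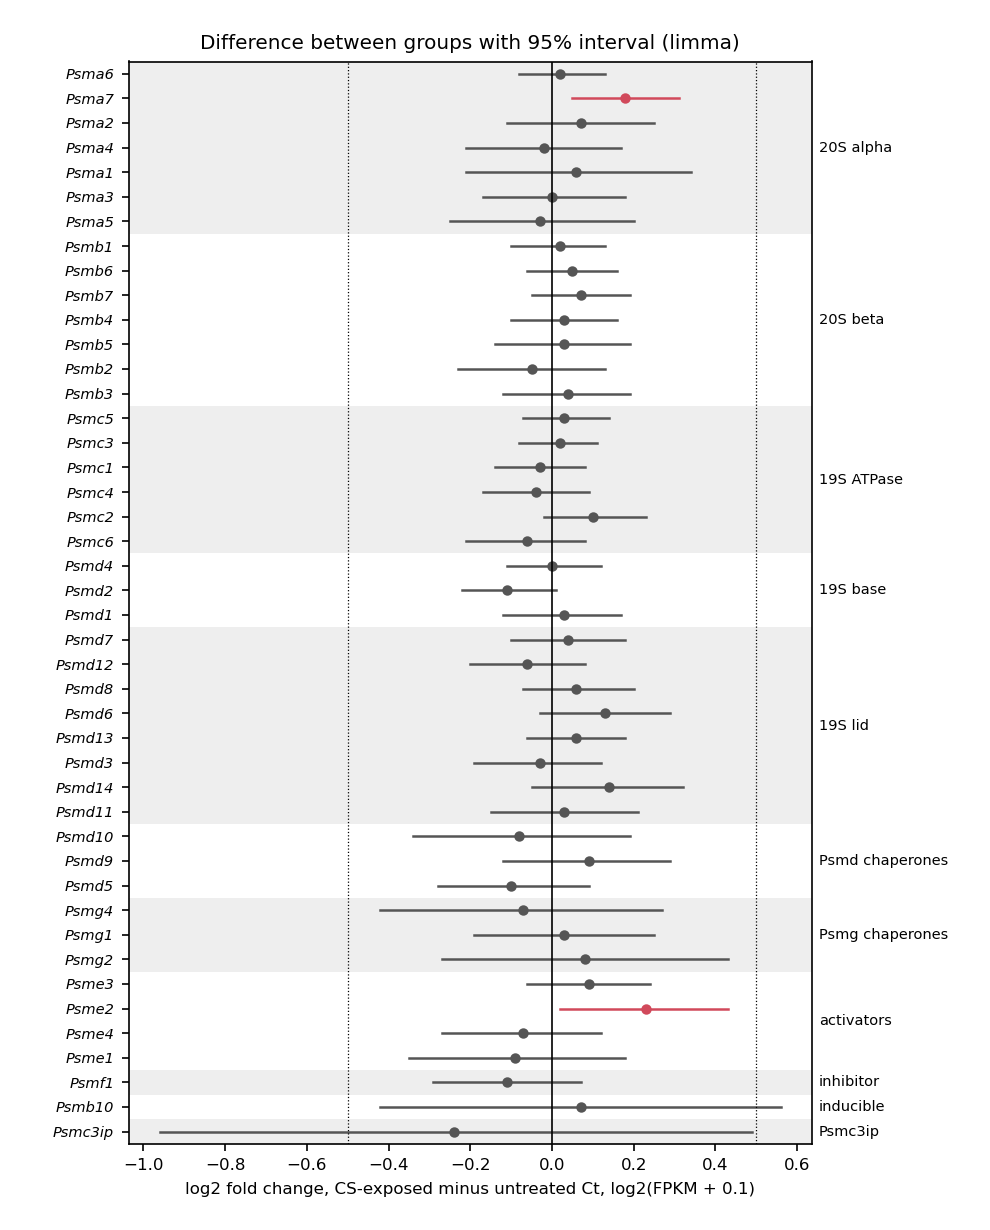
Log2 fold change, CS-exposed minus untreated Ct, of the 44 proteasome genes tested (vertical axis, ordered by role), with the 95% interval from limma. The intervals of Psma7 and Psme2 lie above 0, dotted lines mark 0.5 on either side, and only the intervals of Psmb10 and Psmc3ip pass them.

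The other genes of the pathway, which carry no Psm symbol, were compared in the same way. Of 25 such genes, 24 were tested, and none had an unadjusted limma p under 0.05 in either direction, against 2.75% higher and 2.08% lower among all genes. Their median log2 fold change was 0.01, and 13 of 24 were positive. Nfe2l1 encodes Nrf1, the factor that raises proteasome genes when proteasome activity is short, and had 34.2 ± 2.67 FPKM in untreated Ct and 34.6 ± 0.813 in CS-exposed mice. Nfe2l2 encodes Nrf2, which responds to oxidants, and had 4.64 ± 0.226 and 4.93 ± 0.318. The ubiquitin gene Ubb was far higher, at 675 ± 22.7 and 671 ± 23.5 FPKM, and Vcp, the unfoldase that delivers substrates, had 49.7 ± 1.44 and 51.2 ± 1.16. The ubiquitin receptor Adrm1, with 24.5 ± 1.35 and 27.0 ± 1.75 FPKM, had the smallest unadjusted limma p of the list, 0.0633.

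The deviations of genes from their group means were compared between libraries. Their median pairwise r over the 8 libraries, given as a description, was 0.13 for the 14 constitutive core genes, 0.38 for the alpha ring alone, -0.05 for the beta ring, 0.11 for the ATPases and 0.16 for the lid, against 0.03 for all genes tested, whose middle 50% of pairs ran from -0.28 to 0.34. All these points share library and depth. With 8 libraries and small spread, such values are no finding.

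The samples had the markers of FC, at very unlike levels. Cryaa (97200 FPKM), Crygs (41700) and Cryba1 (29600) had the highest means in untreated Ct mice. Lim2 ranged only from 6.47 to 8.62 FPKM over all libraries, below the epithelium marker Foxe3 at 17.5 to 64. The 10 lens fiber markers, such as Cryaa, Bfsp1 and Mip, summed to 178000 to 187000 FPKM in untreated Ct and 173000 to 183000 in CS-exposed libraries, and none had an unadjusted limma p under 0.05, against 2.75% higher and 2.08% lower among all genes. The 5 lens epithelium markers summed to 36.2 to 89.9 and 27.6 to 52.5 FPKM. The 8 rod photoreceptor markers had higher means in CS-exposed mice. All 8 had an unadjusted limma p under 0.05, against 2.75% of all genes higher at that level, and none an adjusted p under 0.05. Of these, Sag, Pde6b, Nrl and Prph2 had means under 1.0 FPKM in untreated Ct mice and passed the minimum only through the CS-exposed group, where they were high, so that their count is no support. The 8 genes summed to 7.28 to 25.3 FPKM in untreated Ct and 28.4 to 91.0 in CS-exposed libraries. The 5 pigment epithelium markers summed to 0.514 to 0.782 and 1.30 to 3.86 FPKM, with Best1 at 0 in all libraries. Only Rpe65 reached the minimum for the test, with 0.0314 to 0.188 FPKM in untreated Ct and 0.289 to 3.31 in CS-exposed libraries. It did so only through the CS-exposed group, where it was high, so that its difference is given with no test. Pmel overlapped between the groups, at 0.262 to 0.618 and 0.274 to 1.26 FPKM, as did Tyrp1 and Lrat. Their part in the values of Psma7 and Psme2 was not tested. In bulk samples, fewer cells of a type and less RNA per cell cannot be told apart.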

How the data were processed

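RNA was measured in 8 pools of lens FC. Per the submitters' processing notes in the labels, reads were mapped to GRCm38 (STAR 2.5) and assigned to genes (HTSeq 0.6.1), and the authors deposited the resulting FPKM per library. The annotation release, strand setting and treatment of shared reads are not given in the sources used here. The deposited group means and the authors' fold changes and p-values were not used. Groups and replicate numbers came from the sample titles, and sex was not used. Whole reads were recovered from steps of the FPKM for 99.8% of genes tested, and fragments per library were estimated with GENCODE M21 lengths, which also gave coordinates. Genes reaching 1.0 FPKM in the mean of a group were tested with limma 3.58.1 in R 4.3.3 (lmFit, eBayes with a trend), tested also on simulated data. Libraries of a group come from separate mice. The proteasome genes, gene lists and motifs were chosen with earlier results of these data known. Fold changes were given for the catalytic genes, those with an unadjusted p under 0.05, the smallest p under each symbol stem (Psma to Psmg), and the 3 largest in each direction. Alternatives were pseudocounts of 1 and 0.01, other filters, scalings and priors, a replicate block, limma-voom on the recovered reads, and leaving out each library. Levels by annotated length were added after seeing the data. Other values were computed in Python 3.11.15 with scipy 1.17.1 and pandas 2.3.3.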

Additional observations from a re-analysis of the deposited data

Results flagged for a closer look

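A library stood apart from the other 3 of its group (Dixon's test at the 95% level) in 5 of 92 groups of 4 values examined among proteasome genes, where chance gives about 1 in 20, or 4.6. Psmb6 had 103 FPKM in untreated Ct replicate 4, against 112 to 114 in the others. Psmb7 had 89.9 FPKM in untreated Ct replicate 3, against 81.6 to 83. Psmd1 had 29.1 FPKM in untreated Ct replicate 3, against 31.8 to 32.3, and 35.7 in CS-exposed replicate 1, against 30.3 to 31.2. Psmb10 had 1.77 FPKM in CS-exposed replicate 2, against 3.36 to 3.68.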

How the results depend on the processing

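The 19 alternative fits gave no proteasome gene an adjusted p under 0.05 by limma, with a smallest value of 0.875. Psma7 had an unadjusted p under 0.05 in all 19. The count of higher genes at that level was 1 in place of 2 under quantile normalization and eBayes without a trend, where Psme2 was lost, and 1 to 3 when each library was left out (1 without CS-exposed replicate 1 or 2, 3 without untreated Ct replicate 1, with Psmd6, or untreated Ct replicate 2, with Psme3 and Psmc2 in place of Psme2). The count of lower genes was 1 in place of 0 with no minimum FPKM and under quantile normalization, which was Psmd2 in both, and 0 to 1 when each library was left out. The number of genes whose groups did not overlap was 0 to 3 in place of 0 when each library was left out: 2 (Psmd6, Psme2), 3 (Psme3, Psmd2, Psmc2) and 1 (Psma7) without untreated Ct replicates 1, 2 and 4, and 1 (Psmd14), 2 (Psmd2, Psmd13) and 3 (Psma7, Psmb2, Psmd5) without CS-exposed replicates 1, 2 and 4. Over all genes tested, 5.52% to 6.23% did not overlap in these fits with 3 against 4 libraries, against 3.08% with all libraries. The median log2 fold change of 0.027 was 0.0072 under quantile normalization and ran from 0.0028 to 0.034 when each library was left out. Psmb6 ran from 0.017 (without untreated Ct replicate 4) to 0.074, and Psmb7 from 0.038 (without CS-exposed replicate 3) to 0.10. Psmf1 ran from -0.14 (without CS-exposed replicate 1) to -0.06 (without CS-exposed replicate 3). The sign of small differences turned when single libraries were left out: Psmb10 ran from -0.042 to 0.30, Psmb5 from -0.019 to 0.084, Psmg2 from -0.065 to 0.22 and Psmc3ip from -0.55 to 0.045. The difference of the log2 ratio of Psmb8 to Psmb5 ran from -0.64 to 0.17, that of Psmb9 to Psmb6 from 0.071 to 0.53, and that of Psmb10 to Psmb7 from -0.094 to 0.20 and was -0.0066 with a pseudocount of 1. The cause of these turns was not tested.

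The replicate numbers were not taken to pair the samples. The deviations of same-numbered libraries (1 to 4) correlated at 0.01, 0.08, 0.11 and 0.16, against -0.13 to 0.06 for differently numbered libraries, and those numbered 1 did not correlate best with each other. With a replicate block, 2 proteasome genes (Psma7 and Psme2) had an unadjusted p under 0.05, which is 2 of 44 against 522 of 9794 genes (5.33%), and 0 an adjusted p under 0.05, against 5 of all genes, with a smallest adjusted p of 0.875 among proteasome genes. Depth limited Psmb8, Psmb9, Psmb11, Psmg3 and Psme2b, with 0 to 31 reads per library.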
